A study of Sus scrofa with 3 samples.

Results

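The genes described here are HMOX1, NQO1, GCLC, GCLM, TXNRD1, TXN, PRDX1, SOD1, SOD2 and CAT, a group of antioxidant genes, many of them targets of the transcription factor NRF2. They were chosen by name, from the probe names and descriptions of the array, with earlier results of these data known. Of the 10 genes, 9 had at least 1 probe, and these 9 were covered by 42 of the array's 43603 probes and belong to 6376 genes with a symbol. PRDX1, a peroxiredoxin, matched no probe and was not analysed here. By array name 36 probes matched, by their description 3 (1 each of TXNRD1, TXN and CAT) and by gene identifier 3, those of GCLM, which carries an identifier in place of its symbol on this array.

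The RNA came from PIE cells, a non-transformed porcine line from the intestinal epithelium of a newborn, unsuckled pig. All cultures were grown for 3 days and finally received PAMPs, the molecular patterns by which cells detect microbes, for 12 h; here they came from enterotoxigenic Escherichia coli (ETEC), a cause of diarrhoea in piglets. The TL2937+ETEC culture was kept with Lactobacillus jensenii TL2937 for 48 h and washed before the challenge, the TL2766+ETEC culture was kept likewise with Lactobacillus plantarum TL2766, and the ETEC culture received no lactobacilli. Each group was 1 culture on 1 array, all on 1 slide, so culture, array position and group cannot be told apart. Cells without ETEC PAMPs, named in the design, were not analysed here, and no value below is set against resting cells.

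NRF2 (gene NFE2L2) is held in the cytoplasm by KEAP1, which marks it for degradation. Electrophiles and oxidants modify KEAP1, and NRF2 then reaches the nucleus and, with small MAF proteins, binds antioxidant response elements of genes for heme breakdown, quinone reduction, glutathione synthesis and the thioredoxin system. SOD1, SOD2 and CAT remove superoxide and hydrogen peroxide, and SOD2 is also a well-known target of NF-kB, the factor that drives much of the inflammatory response to bacterial products.

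The sequences of the array probes are shown for the genes whose differences were furthest from 0 in the same direction in both lactobacillus cultures, so that it is clear which transcript stretches were read. They are the 3 probes of NQO1 and 1 of the 3 of HMOX1. The HMOX1 probe shown is the dimmest, with the differences furthest from 0. The brightest HMOX1 probe, which represents the gene below, is not shown. Each is written 5′ to 3′ as the array design gives it, and none shares a run of 12 or more bases with another probe of its gene. The GC content is 55.0% for the HMOX1 probe, and 45.0%, 43.3% and 45.0% for the NQO1 probes in the order shown. The array files place none of them on a chromosome.
HMOX1 A_72_P622079: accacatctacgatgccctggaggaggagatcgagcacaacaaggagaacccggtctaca
NQO1 A_72_P536730: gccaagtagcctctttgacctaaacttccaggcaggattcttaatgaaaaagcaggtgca
NQO1 A_72_P127796: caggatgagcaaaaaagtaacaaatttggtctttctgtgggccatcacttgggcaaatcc
NQO1 A_72_P553981: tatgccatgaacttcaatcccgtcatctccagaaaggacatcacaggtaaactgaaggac

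Values are processed intensities divided by the array's 75th percentile (503, 481 and 459 on the TL2937+ETEC, TL2766+ETEC and ETEC arrays) and multiplied by one constant, called scaled intensity. Differences are log2 ratios of scaled intensity, lactobacillus culture over ETEC culture unless said otherwise, and 1.2-fold is used as a mark for a small difference. A gene is given by its brightest probe, and for the 9 antioxidant genes the other probes are set beside it. Levels of different probes are not compared, since probes differ in how brightly they bind. On the arrays 62.5%, 61.7% and 60.9% of spots were well above background in the same order. With 1 array per group no test was possible, and there is no error between cultures. What can be given is technical. Over 27 probes with 5 spots each, the median SD of a log2 difference between spots was 0.11 for TL2937+ETEC over ETEC, 0.082 for TL2766+ETEC over ETEC and 0.087 for TL2937+ETEC over TL2766+ETEC, and the highest were 0.45, 0.57 and 0.52. Among 129 pairs of probes with identical sequence, the differences of a pair lay a median of 0.059, 0.055 and 0.058 apart, with a 95th percentile of 0.22, 0.26 and 0.25. The scanner software's own error of a log2 difference is 0.20 for bright probes. For these it follows from a multiplicative error set at 10%, the same for each array. It holds nothing of the spread between cultures, so a difference beyond it is not thereby a difference between treatments.

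The label of the line was checked against marker genes, and by the background flag of their probes the data go against it in part. Some defining epithelial markers were not well above background while some endothelial ones were, though each list held markers of both kinds. Sums are given to compare cultures within a list, not lists with each other. Of 10 epithelial marker genes with a probe, 6, 5 and 6 were well above background in the TL2937+ETEC, TL2766+ETEC and ETEC cultures. KRT18, KRT20 and CLDN4 were not well above background on any array. EPCAM was at 15.3, 11.3 and 12.3, well above background in the TL2937+ETEC culture alone. CDH1 (E-cadherin) was at 25.1, 8.63 and 17.2, the second not well above background. KRT8, CLDN3, CLDN7 and OCLN were well above background on all 3 arrays, though all but OCLN were dim. The summed scaled intensity of the epithelial list was 1013, 1045 and 1240, most of it OCLN. Of 7 endothelial markers with a probe, 6, 5 and 6 were well above background, with a sum of 163267, 164493 and 168114. Among them, PECAM1 was at 84031, 85367 and 86702, and CDH5 at 56584, 55877 and 60380. ERG was not well above background on any array, and VWF was dim, at 15.5, 13.8 and 22.7, the second not well above background. Of 10 mesenchymal markers with a probe, 10, 9 and 10 were well above background, with a sum of 287095, 302236 and 308295, most of it VIM (242690, 252334 and 251703) and ACTA2. Of 10 leukocyte markers with a probe, 4, 5 and 5 were, with a sum of 788, 840 and 712, and PTPRC was not well above background on any array. The cells are therefore called PIE cells here by name alone. Cell composition and level per cell cannot be told apart in these values, and the part of composition in the differences below was not tested.

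HMOX1, which encodes the enzyme that opens heme to biliverdin, iron and carbon monoxide, was brighter in both lactobacillus cultures than in the ETEC culture. Its brightest probe read 39605 in the TL2937+ETEC culture and 37665 in the TL2766+ETEC culture, against 28431 in the ETEC culture. The second probe read 11554 and 10838, against 7809, and the third, whose sequence is shown above, read 1654 and 1523, against 1063. All 3 probes were thus lowest in the ETEC culture. The log2 difference of the brightest probe was 0.48 for TL2937+ETEC (1.39-fold) and 0.41 for TL2766+ETEC (1.32-fold), and over the 3 probes the differences ran between 0.48 and 0.64 and between 0.41 and 0.52. The gene lay at the 98.0th percentile of all genes in the TL2937 comparison and at the 96.5th in the TL2766 comparison. Both differences exceed the software error, which holds no spread between cultures, while the 0.072 between the lactobacillus cultures does not.

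NQO1, a quinone reductase that transfers electron pairs and so avoids reactive semiquinones, was also brighter in both. Its brightest probe read 2233 in the TL2937+ETEC culture and 2552 in the TL2766+ETEC culture, against 1769 in the ETEC culture. The other probes read 1418 and 1532, against 1053, and 579 and 586, against 478. The log2 difference was 0.34 for TL2937+ETEC (1.26-fold, 95.4th percentile) and 0.53 for TL2766+ETEC (1.44-fold, 98.1st percentile). Over the probes it ran between 0.28 and 0.43 and between 0.29 and 0.54. All 3 probes were highest in the TL2766+ETEC culture, but the difference of TL2937+ETEC over TL2766+ETEC, which ran between -0.19 and -0.017, is within the software error.

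Some markers of other cell types moved in the same direction as HMOX1 and NQO1. The endothelial receptor TEK read 2419 in the TL2937+ETEC culture and 2189 in the TL2766+ETEC culture, against 1340 in the ETEC culture, and KDR read 798 and 753, against 532. Over all genes, 7.23% were at least 1.2-fold higher and 12.3% lower in the TL2937+ETEC culture. In the TL2766+ETEC culture 8.07% were higher and 8.94% lower. TEK and KDR were the 2 of 6 and 2 of 5 measured endothelial markers at least 1.2-fold higher, with 1 (VWF, dim) and 0 lower. The summed level of the list was lower in both than in the ETEC culture. Of the leukocyte markers, 0 of 4 measured were at least 1.2-fold higher and 1 (CD79A) was lower in the TL2937+ETEC culture, and 0 of 3 were higher or lower in the TL2766+ETEC culture. CD14, a monocyte marker, read 723 and 741, against 623, with log2 differences of 0.21 and 0.25, under 1.2-fold. Of the mesenchymal markers, 1 of 10 was higher (LUM, dim) and 4 lower in the TL2937+ETEC culture. The 4 measured LUM probes disagreed in direction. In the TL2766+ETEC culture 0 of 9 mesenchymal markers were higher and 2 lower. The part of these markers in the differences of HMOX1 and NQO1 was not tested.

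**Figure D1:**
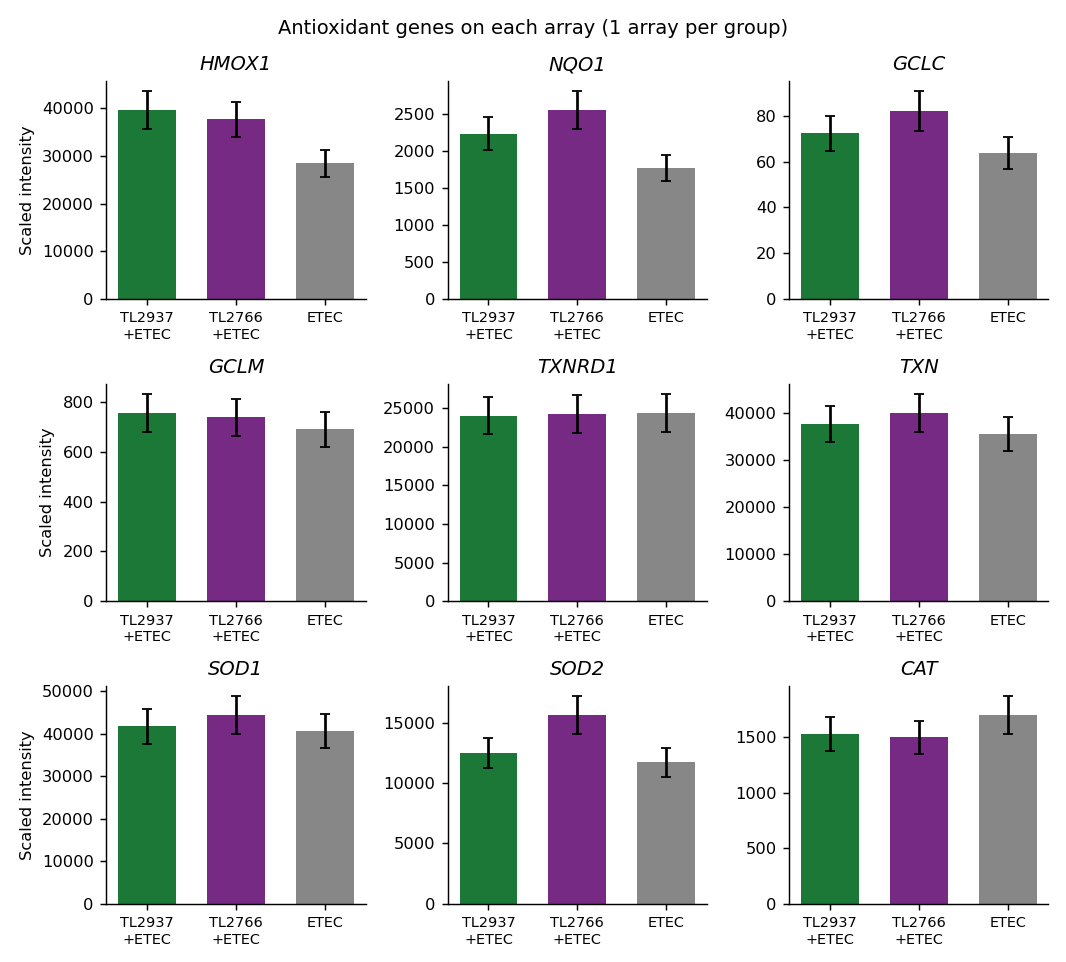
Scaled intensity (linear axis starting at 0) of the brightest probe of each of the 9 antioxidant genes in the TL2937+ETEC, TL2766+ETEC and ETEC cultures, 1 array each. Bars are single values and the lines are the scanner software's error, not a spread between cultures. HMOX1 and NQO1 were lowest in the ETEC culture, and SOD2 was highest in the TL2766+ETEC culture.

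The genes of glutathione synthesis differed less. GCLC encodes the catalytic and GCLM the modifier subunit of glutamate-cysteine ligase, the enzyme of the first step. The 1 probe of GCLC was dim, at 72.4 in the TL2937+ETEC culture and 82.2 in the TL2766+ETEC culture, against 63.9 in the ETEC culture. Its log2 difference was 0.18 for TL2937+ETEC, less than its software error of 0.22, and 0.36 for TL2766+ETEC (1.29-fold), more than its error of 0.22. With a normexp background correction the first difference was -0.048, so its direction depends on how background is removed. GCLM read 757 and 740, against 691 in the ETEC culture, a difference of 0.13 and 0.099. Its other probes read 515 and 544, against 464, and 265 and 259, against 243. All 3 GCLM probes were brighter in both lactobacillus cultures, each by less than 1.2-fold.

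In the thioredoxin system the brightest probes differed by less than the software error. TXNRD1 encodes the reductase that recharges thioredoxin and TXN thioredoxin itself, which reduces oxidised proteins. The brightest TXNRD1 probe read 23965 in the TL2937+ETEC culture and 24186 in the TL2766+ETEC culture, against 24365 in the ETEC culture. Of its 6 probes, 3 were brighter in the TL2937+ETEC culture and 5 in the TL2766+ETEC culture, and the differences furthest from 0, 0.29 and 0.51, were on 1 dim probe that read 46.3 and 53.9, against 37.9. TXN read 37592 and 39965, against 35422, with log2 differences of 0.086 and 0.17. Its 4 probes were all brighter in both lactobacillus cultures, by at most 0.11 and 0.17, but 2 of the 4 overlap in sequence by 39 bases.

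SOD1, the cytosolic superoxide dismutase, read 41745 in the TL2937+ETEC culture and 44360 in the TL2766+ETEC culture, against 40666 in the ETEC culture. Over its 5 probes the differences ran between -0.044 and 0.057 for TL2937+ETEC and between 0.0024 and 0.13 for TL2766+ETEC, all within the software error. SOD2, the mitochondrial enzyme, read 12473 and 15624, against 11707. The TL2766+ETEC culture was highest on all 7 SOD2 probes. The log2 difference of SOD2 was 0.091 for TL2937+ETEC and 0.42 for TL2766+ETEC (1.34-fold). Over the 7 probes it ran between 0.066 and 0.26 for TL2937+ETEC and between 0.42 and 0.59 for TL2766+ETEC.

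In the direct comparison SOD2 was at -0.32 for TL2937+ETEC over TL2766+ETEC, and its 7 probes ran between -0.42 and -0.28. The 7 probes read 5 distinct stretches, and 2 probes have the same 60 bases. These 2 gave 0.091 and 0.17 for TL2937+ETEC and 0.42 and 0.48 for TL2766+ETEC, which shows the scatter of 1 sequence measured at different places of the array. SOD2 was the only one of the 9 genes at least 1.2-fold apart between the lactobacillus cultures.

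**Figure D2:**
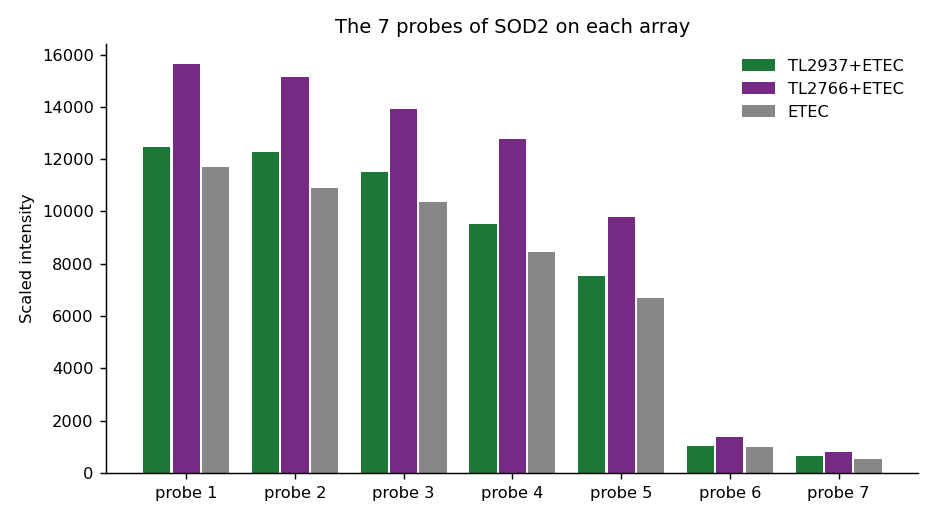
Scaled intensity (linear axis starting at 0) of each of the 7 SOD2 probes, ordered by brightness, in the TL2937+ETEC, TL2766+ETEC and ETEC cultures (1 array each, no error drawn). On every probe the TL2766+ETEC bar is the highest, and the TL2937+ETEC bar is next.

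CAT, catalase, which splits hydrogen peroxide in peroxisomes, was dimmer in both lactobacillus cultures on most of its probes. Its brightest probe read 1534 in the TL2937+ETEC culture and 1499 in the TL2766+ETEC culture, against 1699 in the ETEC culture, with differences of -0.15 and -0.18. Of 10 probes, 1 was not well above background on any array. Of the 9 others, 8 were dimmer and 1 brighter in each comparison, between -0.25 and 0.052 for TL2937+ETEC and between -0.19 and 0.018 for TL2766+ETEC. Several of these probes overlap, so that the 10 read 6 distinct stretches. The difference of the brightest CAT probe is within the software error in each comparison.

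**Figure D3:**
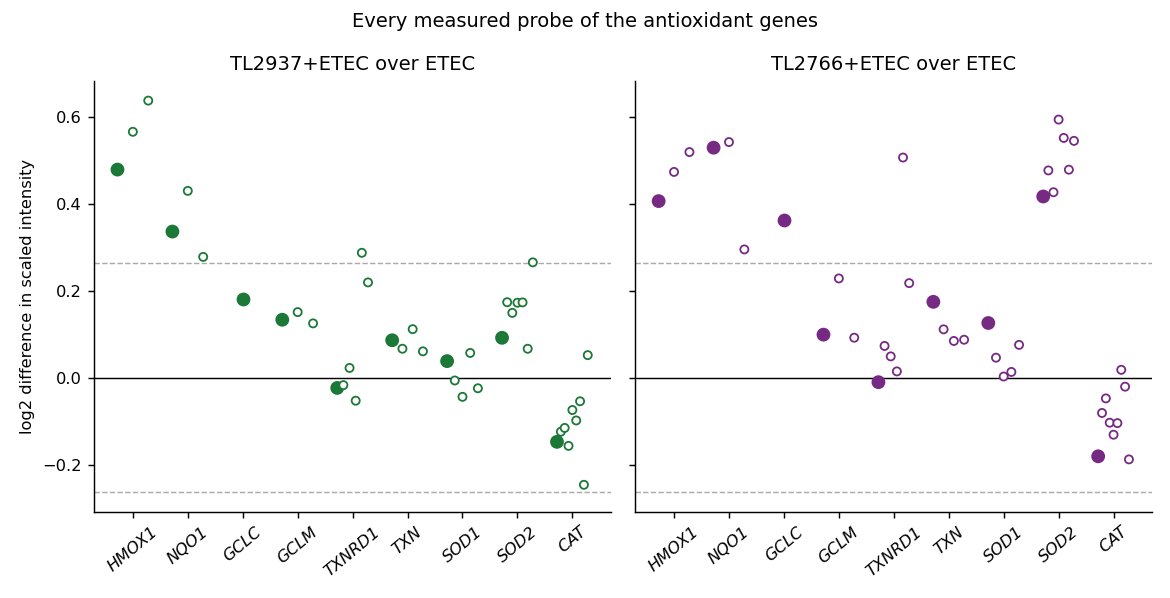
Log2 difference in scaled intensity of each measured probe (41 of the 42) of the 9 genes, for TL2937+ETEC over ETEC (left) and TL2766+ETEC over ETEC (right). Filled circles are the brightest probe of a gene, open circles its other probes, and dashed lines mark 1.2-fold. The HMOX1 and NQO1 probes lie above the upper dashed line in both panels and the SOD2 probes in the right panel. So do 1 dim TXNRD1 probe in both panels, 1 SOD2 probe in the left panel and the GCLC probe in the right panel.

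Over the 9 genes, 2 (HMOX1 and NQO1) were at least 1.2-fold higher in the TL2937+ETEC culture, where 7.23% of 4868 genes were, and 0 were that much lower, where 12.3% were. The median log2 difference was 0.091, against -0.040 over all genes. In the TL2766+ETEC culture 4 were higher (HMOX1, NQO1, GCLC and SOD2), where 8.07% of 4843 genes were, and 0 were lower, where 8.94% were, with a median of 0.17 against 0.0012. Of TL2937+ETEC over TL2766+ETEC, 0 were higher, where 4.18% of 4881 genes were, and 1 was lower, where 7.15% were, with a median of -0.088 against -0.043. No gene of the 9 differed 2-fold in any comparison, where 0.39%, 0.558% and 0.287% of all genes did in these 3 comparisons. The lactobacillus comparisons share the ETEC array, so the values of one are not independent of the other. The 10 genes were chosen with earlier results of these data known, so the counts are a description and not a test of the group. Dim genes differ more often: among genes brighter than the median detected signal, 3.89% and 4.86% were at least 1.2-fold higher than in the ETEC culture in the TL2937+ETEC and TL2766+ETEC cultures, and of the 8 antioxidant genes in that range, 2 and 3 were.

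The other genes of the NRF2 pathway are given as counts past 1.2-fold, to be read against the shares of all genes given above; with so few genes per list, counts of 0 or 1 do not set a list apart from other genes. Of 4 NRF2 regulators measured, NFE2L2 read 456 in the TL2937+ETEC culture and 516 in the TL2766+ETEC culture, against 533 in the ETEC culture, with differences of -0.22 and -0.048. KEAP1, its inhibitor, was at -0.040 and 0.028, MAFF, a small MAF partner, at -0.17 and 0.089, and BTRC, an F-box protein, at 0.37 and 0.22, so BTRC alone passed 1.2-fold, in the TL2937+ETEC culture. Of 29 other NRF2 targets, 17 were measured in each comparison. Of these, 0 were at least 1.2-fold higher and 1 was lower in each, and that 1 was EPHX1, microsomal epoxide hydrolase, at -0.43 and -0.47. SRXN1 (sulfiredoxin) read 9038 in the TL2937+ETEC culture and 9881 in the TL2766+ETEC culture, against 9040 in the ETEC culture. The other SRXN1 probe was at -0.27, past 1.2-fold lower, for TL2937+ETEC and at -0.021 for TL2766+ETEC, so the probes disagree. SLC7A11, the cystine importer, read 433 and 474, against 440. The most positive of the 17 was ABCC1, a glutathione-conjugate exporter, at 0.14 and 0.24, and their median was close to 0 for TL2937+ETEC and 0.048 for TL2766+ETEC. GSTA1 was well above background in the TL2937+ETEC culture alone, at 21.8, against 5.26 in the ETEC culture, which is at least 1.70-fold.

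Other antioxidant enzymes gave 15 measured genes. Of these, 0 were at least 1.2-fold higher and 2 lower in the TL2937+ETEC culture, where 7.23% and 12.3% of all genes were. In the TL2766+ETEC culture 1 was higher and 2 lower, where 8.07% and 8.94% were. With so few genes, these counts do not set the list apart from other genes. The 2 lower genes were MSRA, a methionine sulfoxide reductase, at -0.42 and -0.41, and TXNRD2, the mitochondrial thioredoxin reductase, at -0.30 and -0.27, and the higher one was GLRX, glutaredoxin, at 0.065 and 0.29. Around HMOX1, 7 heme and iron genes were measured, and only FLVCR1, a heme exporter, passed 1.2-fold, in the TL2937+ETEC culture, at 0.28. FLVCR1 rests on 1 dim probe, at 24.1 against 19.8 in the ETEC culture, where the lowest detected signal was 12.9. HMOX2, the constitutive heme oxygenase, was at -0.11 and -0.093, and FTH1, the ferritin heavy chain of the NRF2 target list, at -0.16 and -0.088.

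Genes that respond to other stimuli of HMOX1 or NQO1 were read beside them, and any part of these stimuli was not tested. Counts past 1.2-fold below are to be read against all genes, of which 7.23% were higher and 12.3% lower in the TL2937+ETEC culture. In the TL2766+ETEC culture 8.07% were higher and 8.94% lower. Of 10 heat shock genes, 0 were higher and 1 lower in the TL2937+ETEC culture, and 1 was higher and 1 lower in the TL2766+ETEC culture. Of these, CRYAB was at -0.35 and -0.29, and HSPB8 at 0.052 and 0.30 on its brightest probe. Of the 7 HSPB8 probes, 6 were lower for TL2937+ETEC, with a median of -0.066. For TL2766+ETEC all 7 were higher, between 0.083 and 0.32, with a median of 0.17, under 1.2-fold. Of 7 genes of the aryl hydrocarbon receptor, which also drives NQO1, 3 were lower in the TL2937+ETEC culture, where 12.3% of all genes were. They were CYP1A1 at -0.38, on 1 dim probe (44.8 against 58.2), TIPARP at -0.34 and UGT1A6 at -0.27. In the TL2766+ETEC culture 0 were lower, where 8.94% were. In each comparison 0 were 1.2-fold higher and 3 stood above 0, among them AHR at 0.25 and 0.18. The 7 include NFE2L2, given above among the NRF2 regulators. Of 3 metal response genes, 0 passed 1.2-fold in either.

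The NF-kB targets were read because SOD2 belongs among them as well. Of 14 measured, 0 were at least 1.2-fold higher or lower in the TL2937+ETEC culture, where 7.23% and 12.3% of all genes were, with a median of -0.15. In the TL2766+ETEC culture 4 were higher, where 8.07% of all genes were, and 0 lower, where 8.94% were, with a median of 0.10. These 4 were CSF2 at 0.64, IL6 at 0.52, CCL20 at 0.46 and IL1A at 0.33, and in the TL2937+ETEC culture they stood at 0.17, -0.19, 0.16 and -0.16. Of TL2937+ETEC over TL2766+ETEC, 6 of the 14 were at least 1.2-fold lower, where 7.15% of all genes were, and 0 higher, where 4.18% were. Their median was -0.24, and SOD2 was at -0.32. Any link between SOD2 and these genes was not tested.

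**Figure D4:**
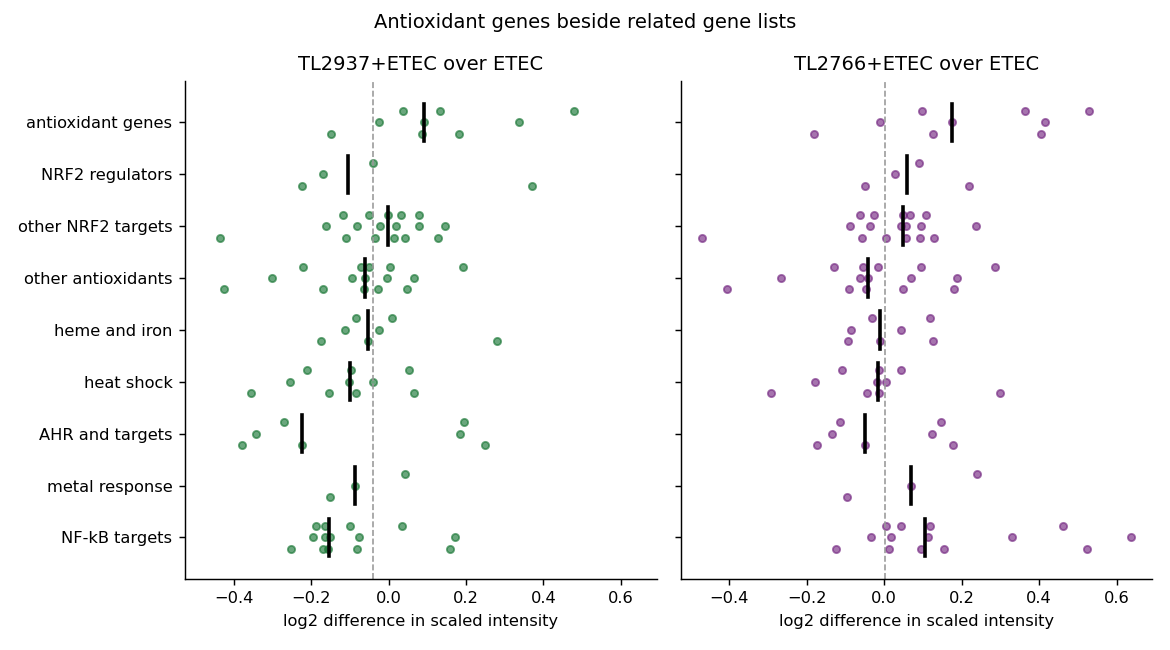
Log2 difference in scaled intensity of each measured gene for the antioxidant genes and 8 lists of related genes, for TL2937+ETEC over ETEC (left) and TL2766+ETEC over ETEC (right). Each point is a gene (1 array per group), short black lines are list medians, the dashed line is the median of all genes and the vertical offset of points has no meaning. HMOX1, at 0.48, is the rightmost point of the left panel.

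The genes whose pair of differences lay nearest to that of HMOX1, among 4816 genes well above background on all arrays, were MTTP, ND3, IVD, C4H1orf112 and SULT1A3, at Euclidean distances of 0.026, 0.034, 0.034, 0.034 and 0.037 on the log2 scale. Those nearest to NQO1 were FMO5, HMGA1, MBD5, NR3C2 and TNPO3, at 0.040, 0.041, 0.044, 0.044 and 0.053. In all, 35 genes lay within 0.1 of HMOX1 and 19 within 0.1 of NQO1. These likenesses rest on 2 differences that share an array, and they describe these 3 arrays only.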

How the data were processed

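Per the labels, total RNA of 3 PIE cultures was labelled with Cy3 and hybridised to 1-colour Agilent porcine arrays. Per the file headers, the authors' processed intensity came from Agilent Feature Extraction 10.7.3.1, which subtracts background, and the headers record no step that normalizes arrays to each other. Mean and local background intensity are deposited too, unsubtracted. The authors' deposited value table is the processed intensity after rounding. It was off by no more than 0.492%, 0.496% and 0.496% on the TL2937+ETEC, TL2766+ETEC and ETEC arrays, and its medians over gene features were 40.9, 38.8 and 37. Its scale is linear and uncentred, and with 1 channel it has no direction.

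The log2 of processed intensity was taken and each array's 75th percentile subtracted. Control spots and outlier spots (9, 4 and 8) were left out and spots of a probe averaged. No spot was saturated. A gene is represented by its brightest probe among those that the scanner software marks as well above background, and a difference counts where both arrays are so marked. A gene above background on 1 array only is given a bound, against the higher of its own value and the lowest detected signal. Of 43603 probes, 9668 were named by the array, 2846 by gene identifier, 1056 by accession, 72 by synonym and 3 by description (RefSeq names, assembly Sscrofa11.1), while 29894 had no symbol, and 61 were left out where name and accession differ and 3 that matched several genes. Array names can be old.

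Named are the 10 genes, up to 4 genes per related list with the largest difference in either comparison, and the 5 nearest to HMOX1 and to NQO1. Outside that rule, SRXN1, SLC7A11, GSTA1, CXCL8, CXCL2 and CYP1A2 were named after their values were seen. So were the markers KRT18, KRT20, CLDN4, EPCAM, CDH1, PECAM1, ERG, VWF, VIM and PTPRC. The counts and median of the list of oxidant-producing enzymes are not reported here. The members and lists were chosen with earlier results of these data known. With 1 array per group no test was made. The steps were tested on simulated data. Alternatives were the scalings, background correction, filters, probe summaries, name match, thresholds and the authors' table. The software was R 4.3.3 with limma 3.58.1, and Python 3.11.15 with matplotlib 3.10.9, pandas 2.3.3 and numpy 2.4.6.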

Additional observations from a re-analysis of the deposited data

Results flagged for a closer look

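Some related genes stood on opposite sides of 0 in the lactobacillus cultures, each against the ETEC culture, and were at least 1.2-fold apart between them. None of the antioxidant genes did. With 1 array per group the difference between the cultures was not tested for any of these, and the comparisons share the ETEC array. Among the related genes, UGT1A6 was at -0.27 for TL2937+ETEC and 0.12 for TL2766+ETEC, IL6 at -0.19 and 0.52, IL1A at -0.16 and 0.33, CXCL8 at -0.17 and 0.15, and CXCL2 at -0.15 and 0.12. CYP1A2 ran the other way, at 0.18 and -0.11. NOS2 was at -0.017 and 0.26, but its 5 probes ran between -0.44 and 0.33 for TL2937+ETEC and between -0.13 and 0.47 for TL2766+ETEC. Among cell type markers, all dim, KRT8 was at -0.14 and 0.27, COL6A1 at -0.45 and 0.11, and CD79A at -0.45 and 0.15. LUM was at 0.32 and -0.35 on its brightest probe, but its 4 measured probes disagreed in direction, between -0.29 and 0.32 for TL2937+ETEC and between -0.50 and 0.88 for TL2766+ETEC.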

How the results depend on the processing

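HMOX1 and NQO1 kept their direction and stayed past 1.2-fold in both lactobacillus cultures under all 13 alternatives: HMOX1 lay between 0.44 and 0.57 for TL2937+ETEC and between 0.38 and 0.47 for TL2766+ETEC, and NQO1 between 0.32 and 0.43 and between 0.45 and 0.54. SOD2 in the TL2766+ETEC culture lay between 0.39 and 0.59, past 1.2-fold in all 13, and in the direct comparison between -0.42 and -0.25, past it in 12. GCLC in the TL2766+ETEC culture passed in 11 of 12. The direction of TXNRD1 was not stable, and neither was that of SOD1 and GCLC for TL2937+ETEC, or of GCLM and CAT in the direct comparison. At 1.1-fold, 1 gene was lower in each lactobacillus comparison and 3 in the direct one. At 1.5-fold, 0 were higher in either and 0 lower in the direct one. In the direct comparison 0 were lower with quantile scaling and 2 with the normexp correction. The shares of all genes given above are for 1.2-fold and the main scaling, so they do not apply to these counts. The shares at these settings and the counts higher at 1.1-fold are not given here. With array names only, which leaves out GCLM, the median for TL2766+ETEC was 0.27 over 8 genes. No scaling moved the median of all genes by over 0.1. Leaving out replicates was not possible with 1 array per group. No paired analysis was possible because each group has 1 sample. Promoter motifs were not run. Dim probes limit GCLC and the genes near background, and the number of arrays limits every value.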
